A study of Rattus norvegicus with 5 samples.

Results

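A set of 10 genes of secreted factors that act on blood vessels were followed by RNA-seq in cultured rat vascular smooth muscle cells, which give the vessel wall its tone, over 5 libraries. The genes were chosen by name: Vegfa, Pgf, Vegfb, Vegfc, Vegfd, Angpt1, Angpt2, Angptl4, Adm and Edn1, which make up 10 of the 17048 rows of the deposited tables, with 1 row each. Vegfd stands there under its older symbol Figf, which the RefSeq gene table (GRCr8) lists as a synonym, and the other 9 were found under their own symbols. A mean of at least 10 adjusted reads over the 5 libraries was reached by 8 of the 10, all but Angpt1 and Angptl4.

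The cells were cultured in DMEM/F12 medium on coated plastic. In 3 libraries the cells were pretreated with In-Cl at 0.1 µM, DPN at 0.1 µM or E2 at 10 nM and then held in hypoxia for 24 h. Another library came from cells in hypoxia for 24 h with no compound named, and the last was the control. E2 is estradiol, the natural estrogen, DPN (a diarylpropionitrile) is an agonist selective for estrogen receptor beta, and In-Cl is called an indazole in the series title. The labels do not give the oxygen level, the vessel, the strain or passage of the cells, or whether the control and the hypoxia library received a vehicle.

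Vascular endothelial growth factors are secreted dimers that bind receptor tyrosine kinases on endothelial cells. Vegfa is the main driver of new vessel growth and a textbook target of the hypoxia-inducible factors, Pgf and Vegfb bind the receptor Flt1, and Vegfc and Vegfd act on lymphatic vessels through Flt4 and, after processing, on Kdr. Angpt1 and Angpt2 are ligands of the receptor Tek, with Angpt1 known as the stabilising one and Angpt2 as a context-dependent antagonist. Angptl4 is an inhibitor of lipoprotein lipase with effects on vessel permeability. Adm encodes adrenomedullin, a peptide that dilates vessels, and Edn1 encodes endothelin-1, a peptide that constricts them and is made mainly by endothelium in the vessel wall.

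Start-site sequences are shown first, because hypoxia-inducible factors bind a short core and the members differed in the direction of their difference between hypoxia and control. The core was searched as ACGTG or GCGTG on both strands, in RefSeq windows of 300 bases (GRCr8) that run from 250 bases before a transcript's start to 50 after it, and the 2 words do not overlap in any member window. Windows were found for 8 members, in 9 windows, since Vegfa has 2. A core was found in 4 of the 9 windows, those of Pgf, Vegfb, Angptl4 and Edn1, and in 13937 of all 33469 windows of the table (41.6%). The 4 windows below belong to the member with the highest fold in hypoxia over control (Vegfa), the one with the lowest (Vegfd) and a pair of well-measured members with a core that lay on opposite sides of the control (Pgf and Edn1). They are written 5′ to 3′ on the strand of the gene, with any core, or its reverse complement CACGT or CACGC, in capitals.
Vegfa, chr9:22452604-22452903, plus strand: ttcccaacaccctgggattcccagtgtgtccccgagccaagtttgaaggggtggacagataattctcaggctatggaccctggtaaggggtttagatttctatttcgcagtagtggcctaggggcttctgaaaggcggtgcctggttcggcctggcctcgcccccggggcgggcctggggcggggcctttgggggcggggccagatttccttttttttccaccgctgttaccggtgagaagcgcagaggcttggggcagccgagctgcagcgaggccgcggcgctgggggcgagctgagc
Vegfd, chrX:33739843-33740142, minus strand: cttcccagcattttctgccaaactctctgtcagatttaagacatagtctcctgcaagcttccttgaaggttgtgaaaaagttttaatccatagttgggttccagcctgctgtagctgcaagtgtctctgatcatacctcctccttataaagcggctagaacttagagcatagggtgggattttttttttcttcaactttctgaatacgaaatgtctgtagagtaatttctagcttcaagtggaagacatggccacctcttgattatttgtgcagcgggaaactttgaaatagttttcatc
Pgf, chr6:110557698-110557997, minus strand: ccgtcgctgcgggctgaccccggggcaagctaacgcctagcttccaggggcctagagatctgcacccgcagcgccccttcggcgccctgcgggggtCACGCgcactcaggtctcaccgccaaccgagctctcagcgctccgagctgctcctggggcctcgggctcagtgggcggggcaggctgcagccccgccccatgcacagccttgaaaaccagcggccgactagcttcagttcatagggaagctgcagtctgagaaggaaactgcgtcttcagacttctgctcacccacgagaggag
Edn1, chr17:22666638-22666937, minus strand: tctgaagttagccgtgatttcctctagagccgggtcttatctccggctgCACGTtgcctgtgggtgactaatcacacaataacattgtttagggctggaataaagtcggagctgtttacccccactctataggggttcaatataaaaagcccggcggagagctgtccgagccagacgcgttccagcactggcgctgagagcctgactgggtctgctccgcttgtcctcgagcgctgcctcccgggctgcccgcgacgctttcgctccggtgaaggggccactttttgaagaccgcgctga

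The match in Pgf began 154 bases before the start and read on the opposite strand, and that in Edn1 began 201 bases before it, also on the opposite strand. The cores of Vegfb (ggagcGCGTGtttag, 68 bases before the start) and Angptl4 (acagtCACGTcgctc, 230 bases before it) are given with 5 bases on each side. Neither window of Vegfa held a core, and the windows of Vegfc, Vegfd and Adm held none. A match is a string of letters and not a site that a factor was shown to bind, and a window with none says nothing of sequence outside it. The Vegfd window was also the poorest in G and C of the 9, at 40.7%, against 57.3 to 73.7% in the other 8.

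**Figure D1:**
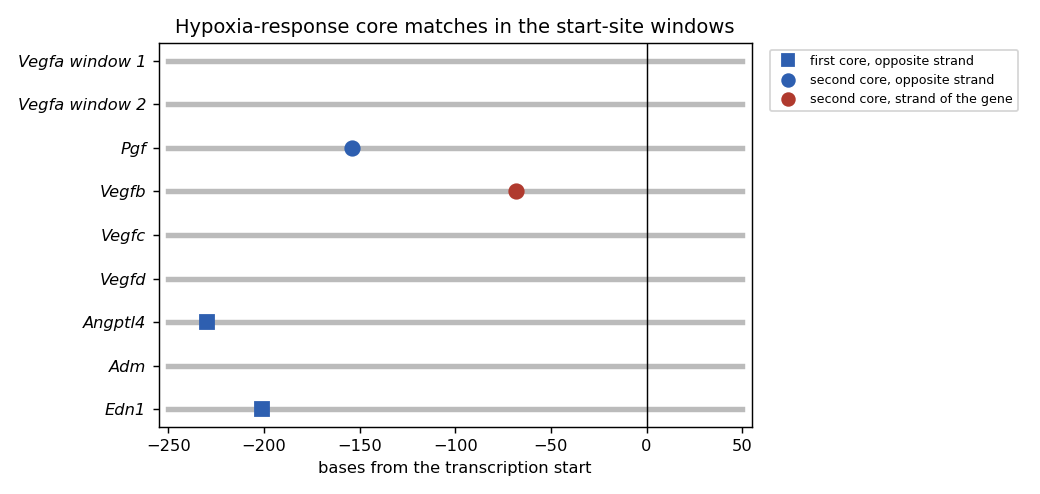
Position of the first base of each core match (ACGTG squares, GCGTG circles) in the 9 start-site windows of 8 members, in bases from the transcription start (vertical line). Matches lie at -154 in Pgf, -68 in Vegfb, -230 in Angptl4 and -201 in Edn1, and the other windows hold none.

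Each condition is 1 library, so the differences below carry no spread between cultures and no p-values, and what is compared is a pair of libraries rather than a pair of conditions. The deposited log2 values were read, from the steps between their low values, as log2 of an adjusted read count plus 1, a form that the sources used here do not state, with sums of 20663687 (control) to 22837695 (hypoxia) adjusted reads per library. Differences are of the deposited log2 values. A counting interval beside one is the exact 95% Clopper-Pearson interval of the ratio of approximate reads, and it covers counting error only. Genes were compared with themselves across libraries and their levels not with each other, since gene length enters each level. A ratio of 2 members within a library is given only beside the same ratio in the other libraries. It restates the differences of the 2 members. In RNA from a whole culture, fewer cells of a type and less RNA per cell cannot be told apart. Detected in at least 1 library were 10 of 10 smooth muscle markers, 6 of 6 fibroblast, 4 of 4 epithelial, 6 of 10 endothelial and 4 of 6 leukocyte markers. The other 4 endothelial markers (Kdr, Cdh5, Emcn and Cldn5) had 0 reads in all 5 libraries. Detected means at least 0.3 adjusted reads in 1 library, so 1 read is enough and the counts do not show amounts. In the control, Acta2 had 119362 adjusted reads and Col1a1 227577, but Krt18 had about 5 reads, Vwf 4 and Lyz2 0. Among the 8 low-oxygen markers, the hypoxia library exceeded the control by 2-fold or more in all 8. Their log2 differences ran from 1.57 (Car9) to 3.61 (Bnip3), with a median of 3.05. Of the 10770 rows with a mean of at least 10 adjusted reads, 4.27% were 2-fold higher. The marker list was chosen with earlier results of these data known, so this count is not independent evidence that hypoxia took effect.

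**Figure D2:**
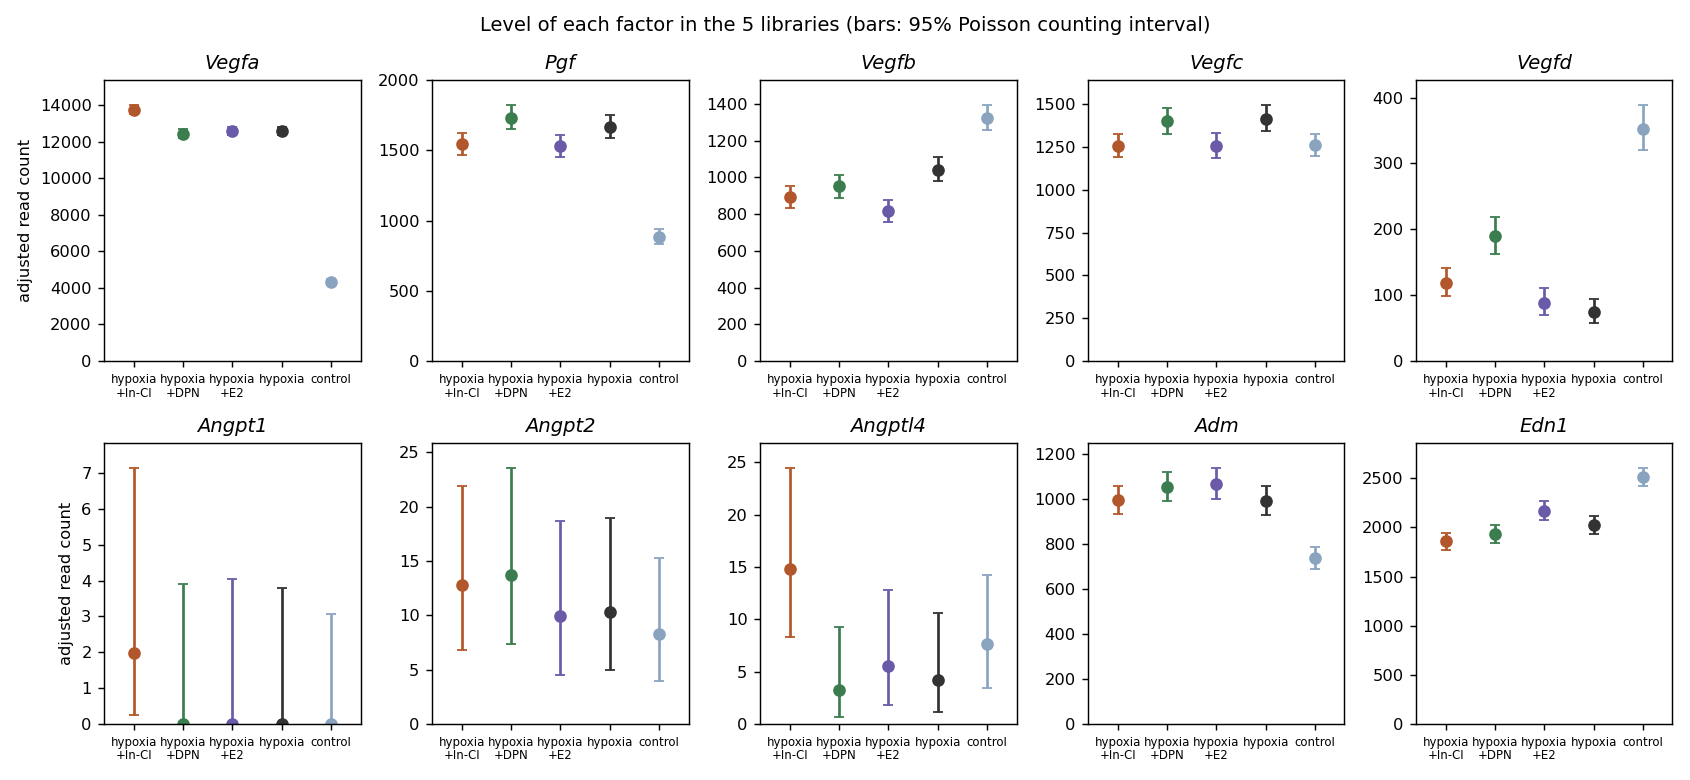
Adjusted read count of each member (vertical axes, linear and starting at 0) in the 5 libraries, with the 95% Poisson counting interval as bars. Vegfa, Pgf and Adm are lower in the control than in all 4 hypoxic libraries, Vegfb, Vegfd and Edn1 are higher in the control, and Angpt1, Angpt2 and Angptl4 rest on 15 reads or fewer.

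Hypoxia against control divided the members. Vegfa was at least 2-fold higher in hypoxia and Vegfd at least 2-fold lower, 1 member each way, where 4.27% of the 10770 rows with a mean of at least 10 adjusted reads were 2-fold higher and 1.14% were 2-fold lower. By the counting interval, 4 members were higher (Vegfa, Pgf, Vegfc and Adm) and 3 were lower (Vegfb, Vegfd and Edn1), against 26.2% of rows higher and 31.6% lower. The median log2 difference of the 10 members was 0.09, against -0.03 over the 10770 rows. These sets are unlike: the 10 include Angpt1 (0.01) and Angptl4 (-0.73), which do not reach the mean of 10 that those rows have. The 2 medians are therefore not read against each other.

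Vegfa had 13748 adjusted reads with In-Cl, 12442 with DPN, 12572 with E2 and 12563 in hypoxia alone, against 4347 in the control. All 4 hypoxic libraries lay far above the control and close to each other. The difference between hypoxia and control was 1.53 on the log2 scale (2.89-fold higher, counting interval 1.48 to 1.58).

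Pgf, placental growth factor, had 1545 adjusted reads with In-Cl, 1733 with DPN, 1529 with E2 and 1669 in hypoxia, against 884.3 in the control. The control was again the lowest library, and hypoxia alone was 1.89-fold higher than it (log2 difference 0.92, counting interval 0.80 to 1.03), just short of 2-fold. Vegfa and Pgf are both ligands of Flt1, and both were higher in hypoxia than in control.

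Vegfb, the Flt1 ligand known for its role in heart muscle and fatty acid transport, was on the other side. It had 891.1 adjusted reads with In-Cl, 951.1 with DPN, 815.9 with E2 and 1042 in hypoxia, against 1324 in the control, so that the control was the highest library. Hypoxia was 1.27-fold lower than control (log2 difference -0.35, counting interval -0.46 to -0.23). Within a library, the ratio of Vegfa to Vegfb adjusted reads was 15.4 with In-Cl, 13.1 with DPN, 15.4 with E2 and 12.1 in hypoxia, against 3.28 in the control.

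Vegfc and Vegfd, the lymphatic pair, differed from each other. Vegfc had 1257 adjusted reads with In-Cl, 1400 with DPN, 1256 with E2 and 1415 in hypoxia, against 1260 in the control, which lay inside the range of the 4 hypoxic libraries. Its log2 difference between hypoxia and control was 0.17 (counting interval 0.06 to 0.27).

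Vegfd had 118.3 adjusted reads with In-Cl, 189.5 with DPN, 88.64 with E2 and 74.58 in hypoxia, against 352.9 in the control. These correspond to about 120, 179, 81 and 72 reads in the hypoxic libraries and 424 in the control, which was the highest of the 5. Hypoxia was 4.68-fold lower than control (log2 difference -2.23, counting interval -2.63 to -1.89), a difference that 13 of the 10770 rows (0.121%), Vegfd included, equalled or passed in the same direction. Against the control, Vegfd was also lower with In-Cl by a log2 difference of -1.57, with DPN by -0.89 and with E2 by -1.98. Pir, the gene next to Vegfd in the RefSeq gene table, had 542.1 adjusted reads in hypoxia and 896.6 in the control, a log2 difference of -0.72 (counting interval -0.88 to -0.57). A pseudogene overlaps Vegfd in the same table, and whether counting used strand is not given in the sources used here.

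**Figure D3:**
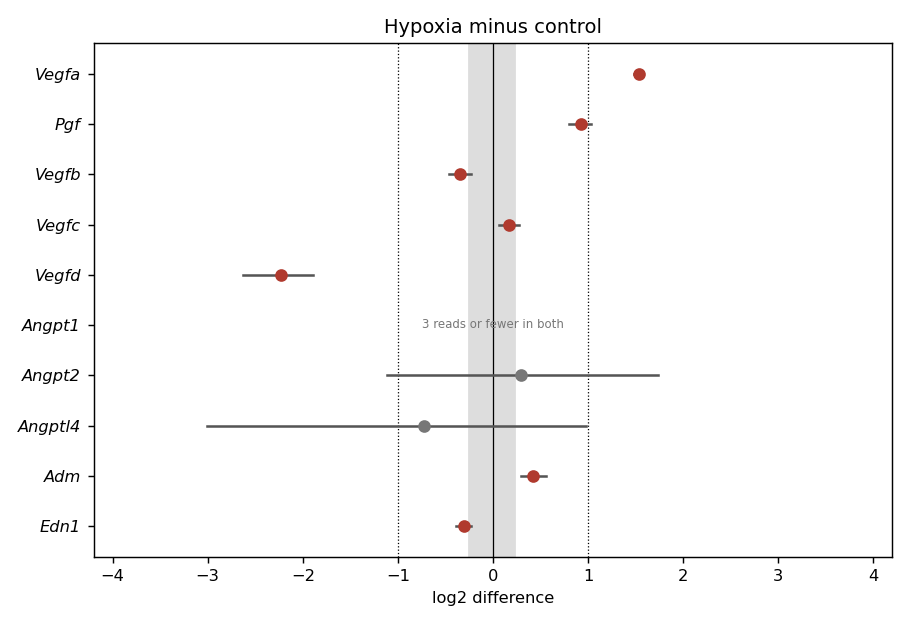
Log2 difference of the 10 members between hypoxia and control (points, red where the counting interval excludes 0) with 95% counting intervals as lines, dotted lines at 2-fold and a grey band from the 25th to the 75th percentile of the 10770 rows. Vegfa at 1.53 and Vegfd at -2.23 lie beyond 2-fold, and Pgf at 0.92 lies just inside it.

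The angiopoietins were near the limit of detection. Angpt1 had about 2 reads with In-Cl and 0 with DPN, with E2, in hypoxia and in the control, where a count of 0 allows up to 3 reads, or 2.5 adjusted reads in the control, the deepest library. Angpt2 had 12.83 adjusted reads with In-Cl, 13.72 with DPN, 9.936 with E2 and 10.34 in hypoxia, against 8.247 in the control, which rest on 9 to 13 reads. Its log2 difference between hypoxia and control was 0.29 with a counting interval of -1.11 to 1.73, so a difference was not detectable at this depth, and quantile normalization put it at -0.03. Angpt2 lies inside the interval of Mcph1 in the RefSeq gene table, a gene not analysed here.

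Angptl4 is a well-known hypoxia and lipid-response gene in other cells. Here it had 14.85 adjusted reads with In-Cl, 3.269 with DPN, 5.566 with E2 and 4.169 in hypoxia, against 7.604 in the control, or about 15, 3, 5, 4 and 9 reads. The control lay inside the range of the hypoxic libraries, and the log2 difference between hypoxia and control was -0.73 with a counting interval of -3.01 to 0.98. Angptl4 is also made by fat cells, and adipocyte markers summed to between 2.275 and 6.925 adjusted reads over 6 genes in the 5 libraries, with Adipoq and Cidec at 0 reads in all 5.

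The 2 vasoactive peptides lay on opposite sides of the control. Adm had 996.4 adjusted reads with In-Cl, 1055 with DPN, 1067 with E2 and 992.2 in hypoxia, against 738.8 in the control. The 4 hypoxic libraries lay together above the control, and hypoxia was 1.34-fold higher (log2 difference 0.42, counting interval 0.29 to 0.56).

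Edn1 had 1859 adjusted reads with In-Cl, 1935 with DPN, 2167 with E2 and 2023 in hypoxia, against 2510 in the control. The control was the highest library, and hypoxia was 1.24-fold lower (log2 difference -0.31, counting interval -0.39 to -0.23). The ratio of Adm to Edn1 adjusted reads within a library was 0.536 with In-Cl, 0.545 with DPN, 0.493 with E2 and 0.490 in hypoxia, against 0.294 in the control. Summed over the 10 endothelial markers, the libraries held 1552 adjusted reads with In-Cl, 1667 with DPN, 1600 with E2 and 1707 in hypoxia, against 1877 in the control. Most of that was Eng, with 1282 adjusted reads in hypoxia and 1580 in the control, whereas Tek had 369.7 and 244.2. Pecam1, Vwf and Tie1 had about 7, 5 and 2 reads in hypoxia and 14, 4 and 2 in the control. Cdh5, Kdr, Emcn and Cldn5 had 0 reads in all 5 libraries. The sum is thus mainly that of Eng and Tek and is not read as an amount of endothelial cells. The part of endothelial cells in the Edn1 values was not tested.

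Taking the 4 hypoxic libraries against the control, 4 members (Vegfa, Pgf, Angpt2 and Adm) had the control below all of them, as did 31.8% of the 10770 rows. In 3 members (Vegfb, Vegfd and Edn1) the control was above all of them, as in 36.5% of rows. All 7 belong to the 8 members that, like those rows, have a mean of at least 10. Angpt2 is counted here on 10 reads in the control, 10 in hypoxia and 9 with E2. Each of its counting intervals against the control included 0, so its place below the hypoxic libraries is within counting error. The position of the control is given as a description and not read as particular to these genes. The SD of the log2 values over the 4 hypoxic libraries was 0.0675 for Vegfa, 0.0545 for Adm, 0.0876 for Pgf, 0.0946 for Vegfc and 0.0947 for Edn1. It was 0.149 for Vegfb, 0.211 for Angpt2 and 0.583 for Vegfd, against a median of 0.118 over the 10770 rows. Counting error adds to this SD at low depth, and Vegfd rests on 72 to 179 reads there, so these values are not ranked against the median.

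Receptors and processing genes were examined with 7 lists of 61 genes, of which 60 had a row, 54 were detected and 39 had at least 20 reads in hypoxia or control. Of these 39, 4 were at least 2-fold higher and 1 was at least 2-fold lower in hypoxia than in control, with a median log2 difference of 0.05. By the counting interval, 17 of the 39 were higher and 9 were lower. Over the 10770 rows, 4.27% were 2-fold higher and 1.14% 2-fold lower, and 26.2% were higher and 31.6% lower by the counting interval. These sets are unlike: the 39 were kept by their reads in hypoxia or control, and the rows by a mean over 5 libraries. Calls by the counting interval also depend on read depth, so the shares are not read against each other.

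Among the VEGF receptors, Flt1, the receptor of Vegfa, Pgf and Vegfb, was the 1 gene that was 2-fold lower. It had 70.01 adjusted reads with In-Cl, 62.78 with DPN, 95.54 with E2 and 69.28 in hypoxia, against 157.7 in the control, a log2 difference of -1.17 between hypoxia and control (counting interval -1.62 to -0.79). The co-receptors Nrp1 and Nrp2 were each lower by a log2 difference of -0.30, so all 3 receptors with at least 20 reads were lower in hypoxia. Kdr, the main signalling receptor of Vegfa on endothelium, had 0 reads in all 5 libraries.

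None of the 3 angiopoietin relatives with at least 20 reads was 2-fold different. Tek, the angiopoietin receptor, had 369.7 adjusted reads in hypoxia and 244.2 in the control (log2 difference 0.60, counting interval 0.37 to 0.82). The 2 lowest of the list, Angptl1 (3 reads in hypoxia and 11 in the control) and Angpt4 (0 reads and 1 read), had too few reads to compare.

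Adrenomedullin's relatives included 2 genes that were 2-fold higher in hypoxia. Adm2, which encodes intermedin, a peptide that shares receptors with adrenomedullin, had 110.5 adjusted reads with In-Cl, 131.3 with DPN, 136 with E2 and 144.4 in hypoxia, against 44.25 in the control. Hypoxia was 3.21-fold higher than control (log2 difference 1.68, counting interval 1.25 to 2.20). Ramp1, which turns the receptor Calcrl toward calcitonin gene-related peptide, had about 20 reads in hypoxia and 2 in the control, a log2 difference of 2.81 with a counting interval of 1.59 to 6.77. Calcrl itself had 3 to 10 reads in the 5 libraries.

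No endothelin-related gene was 2-fold different. Ednra, the receptor through which endothelin-1 constricts smooth muscle, had 150.7 adjusted reads in hypoxia and 96.28 in the control (log2 difference 0.64, counting interval 0.28 to 1.01). Ece2, an endothelin-converting enzyme, had a log2 difference of 0.12 and Furin, a protease that cuts the endothelin precursor, one of -0.26. Ednrb had 0 reads in all 5 libraries, and Edn2 had 0 reads in hypoxia and in the control. The ligand Edn1 was thus lower and its receptor Ednra higher in hypoxia than in control.

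Of the other lists, the growth factors held no gene at 2-fold, with Pdgfb at a log2 difference of 0.97 and Pdgfa at 0.77 as the highest and Tgfb1 at -0.59 as the lowest with at least 20 reads. Fgf1, which had 1 read in hypoxia and 2 in the control, was next to it at -0.39. Among the angiogenesis inhibitors, Timp3, an inhibitor of matrix proteases that also blocks Vegfa binding to Kdr, had 5173 adjusted reads in hypoxia and 2455 in the control (2.11-fold higher, log2 difference 1.07). Among other vasoactive genes, Hmox1, the haem oxygenase that releases carbon monoxide, had 4623 adjusted reads in hypoxia and 1969 in the control (2.35-fold higher, log2 difference 1.23). Apln, which encodes the vasoactive peptide apelin and was named after its values were seen, had about 15 reads in hypoxia and 0 in the control. The counting interval of its log2 ratio began at 2.15 and had no upper end. Egln3, an oxygen-sensing hydroxylase, was the 1 regulator of the oxygen response at 2-fold, with 1059 adjusted reads in hypoxia and 29.4 in the control (log2 difference 5.12).

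**Figure D4:**
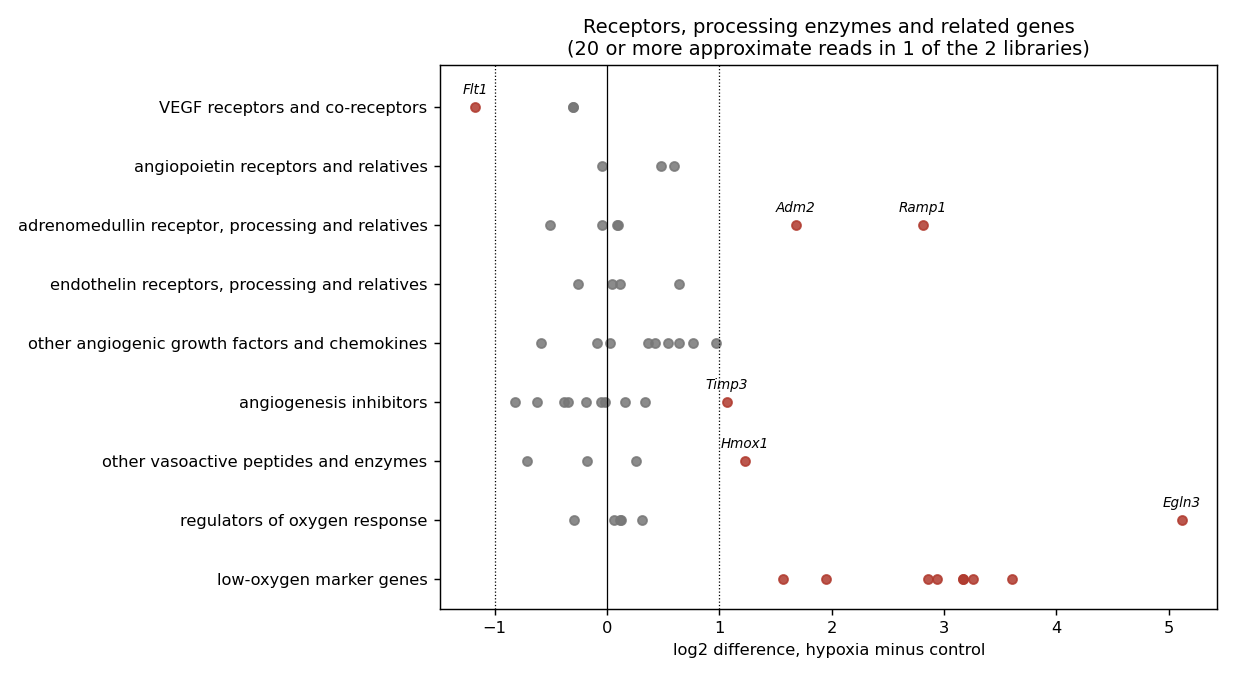
Log2 difference between hypoxia and control for each gene of 9 lists with at least 20 approximate reads in 1 of the 2 libraries, with dotted lines at 2-fold and genes beyond it in red. Flt1 at -1.17 is the 1 gene below the lower line, and Adm2, Ramp1, Timp3, Hmox1, Egln3 and the 8 low-oxygen markers lie above the upper one.

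Some genes listed as markers of other cells differed between hypoxia and control as well. The 4 epithelial markers summed to 564.4 adjusted reads in hypoxia and 221.3 in the control, of which Krt8 made up 530.5 and 208.4. Epcam had about 24 reads in hypoxia and 8 in the control, and Cdh1 8 and 3. Krt18 went the other way, on about 1 read in hypoxia and 5 in the control. The 6 fibroblast markers summed to 285410 and 229270, nearly all of it Col1a1 (284288 and 227577), while Lum was lower, at 590.8 in hypoxia and 1214 in the control. The 10 smooth muscle markers summed to 410947 and 356884, with 5 higher and 2 lower by the counting interval, against 26.2% and 31.6% of rows. The 6 leukocyte markers summed to 186.9 and 205.5. The epithelial and fibroblast sums each rest mainly on 1 gene and are not read as a shift in those cells. The part of these markers in the members' differences was not tested.

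The 3 compounds were each compared with hypoxia alone. These 3 comparisons share the hypoxia library, so a value particular to that library enters all of them. Smooth muscle markers differed from hypoxia as well. By the counting interval, 6 of 10 were lower and 2 higher with In-Cl (median log2 difference -0.36), against 21.7% and 21.3% of rows. With DPN, 6 were lower and 1 higher (-0.28), against 14.1% and 13.1%, and with E2, 5 were lower and 2 higher (-0.05), against 14.6% and 14.4%. At high read counts small differences are called, as for Cald1 at 0.03 with DPN, on about 69255 reads against 69800. Acta2, smooth muscle actin, had log2 differences of -0.49 (In-Cl), -0.40 (DPN) and -0.09 (E2), and the part of this in the members' differences was not tested. Among members with at least 20 reads, Vegfd had the largest difference: it was 2.52-fold higher with DPN than in hypoxia (log2 difference 1.33, counting interval 0.95 to 1.77), and 32 of the 10770 rows (0.297%), Vegfd included, were as far or farther in that direction. With In-Cl it was 1.58-fold higher (log2 difference 0.66, counting interval 0.24 to 1.12), and with E2 the log2 difference was 0.25 (counting interval -0.22 to 0.74). All 3 compound libraries held fewer Vegfd reads than the control.

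With In-Cl, 2 members were at least 2-fold higher than in hypoxia (Angpt1 and Angptl4) and 0 were 2-fold lower, against 1.07% and 0.631% of rows. Those rows have a mean of at least 10, which neither Angpt1 nor Angptl4 reaches, and of the 8 members that do, 0 were 2-fold higher. Neither of the 2 had 20 reads in any library, and Angpt1 rests on 2 reads against 0. Angptl4, with about 15 reads against 4, had a log2 difference of 1.62 and a counting interval of 0.19 to 3.89. The counting interval put 3 members higher (Vegfa, Vegfd and Angptl4) and 4 lower (Pgf, Vegfb, Vegfc and Edn1), against 21.3% and 21.7% of rows. Apart from Vegfd and Angptl4 these differences were small: Vegfa 0.13, Pgf -0.11, Vegfb -0.22, Vegfc -0.17 and Edn1 -0.12 on the log2 scale.

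With DPN, Vegfd was the 1 member at least 2-fold higher and 0 members were 2-fold lower, against 0.631% and 0.780% of rows. It was also the 1 member whose counting interval lay above 0, against 13.1% of rows, and 0 members had one below 0, against 14.1%. The log2 differences of the 6 other members with at least 20 reads lay between -0.13 (Vegfb) and 0.09 (Adm). Pir, the neighbour of Vegfd, had 540.6 adjusted reads with DPN and 542.1 in hypoxia, with a counting interval of -0.18 to 0.17 around its log2 difference.

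With E2, 0 members were 2-fold higher and 0 were 2-fold lower, against 0.696% of rows in each direction. Edn1 was higher by the counting interval, as were 14.4% of rows, with a log2 difference of 0.10. Pgf at -0.13, Vegfb at -0.35 and Vegfc at -0.17 were lower, as were 14.6% of rows. Vegfb with E2 was the lowest of its 5 values, 1.28-fold under hypoxia. Vegfa, by contrast, differed from hypoxia by 0.00 with a counting interval of -0.04 to 0.04.

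**Figure D5:**
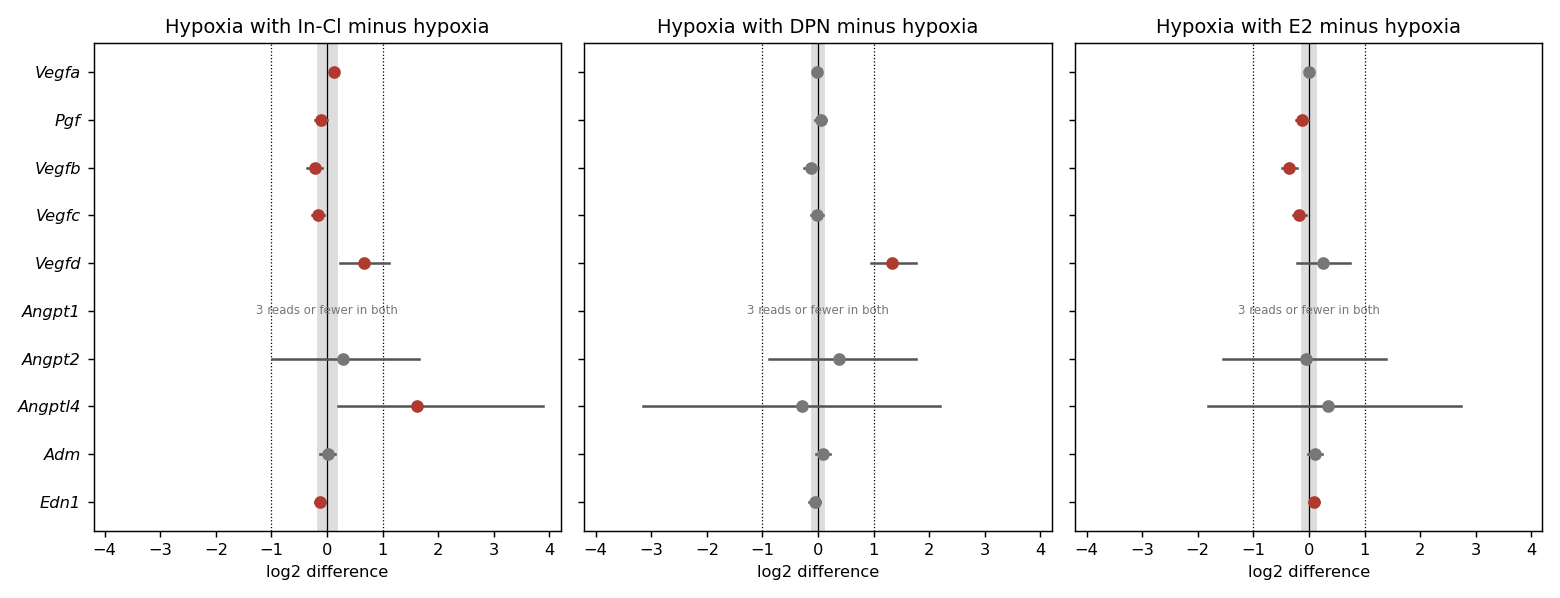
Log2 difference of the 10 members between hypoxia with In-Cl, DPN or E2 and hypoxia alone (points, red where the counting interval excludes 0) with 95% counting intervals, dotted lines at 2-fold and a grey band from the 25th to the 75th percentile of the 10770 rows. Vegfd with DPN, at 1.33, is the 1 member with at least 20 reads beyond 2-fold.

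Between compounds, 3 pairs were compared, without a test since each compound is 1 library. In-Cl and DPN were given at the same dose and time. Vegfd was 1.60-fold lower with In-Cl than with DPN (log2 difference -0.67, counting interval -1.02 to -0.34). Angptl4 was higher with In-Cl (log2 difference 1.89, counting interval 0.40 to 4.65, on about 15 and 3 reads). In all, 5 members had an interval off 0 (Vegfa 0.14, Pgf -0.17 and Vegfc -0.15 beside these), where 35.3% of rows did. For Adm the log2 difference was -0.08 with a counting interval of -0.21 to 0.05, and for Edn1 it was -0.06 with an interval of -0.15 to 0.04.

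E2 was given at another dose than the other compounds, so values with it are only set side by side. In-Cl and E2 had 2 members with an interval off 0 (Vegfa and Edn1), where 35.6% of rows did, and DPN and E2 had 5 (Pgf, Vegfb, Vegfc, Vegfd and Edn1), where 24.7% did. Vegfd was the widest of these, at 189.5 adjusted reads with DPN and 88.64 with E2. Edn1 had 1859 adjusted reads with In-Cl and 1935 with DPN, and 2167 with E2.

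Rows with the most similar pattern over the 5 libraries were sought for the 8 members with a mean of at least 10, as the smallest root mean square distance between centred log2 values among the named rows of the 6699 with the highest mean. For Vegfa these were Pik3ip1 (distance 0.027), Alkbh5 (0.058) and the low-oxygen marker Car9 (0.063). For Adm the nearest was Emp1 (0.011) and for Edn1 it was Mtch2 (0.008). Pgf was nearest to Ccni, Sdc4 and Crip2, Vegfb to Bop1, Tead2 and Nhp2, Vegfc to Cars, Hmox2 and Cir1, and Angpt2 to Cd302, Fam102b and F11r. The counting interval of Angpt2 included 0 in every pair of libraries, so its pattern is within counting error. The means of Vegfd (164.8 adjusted reads) and Angpt2 (11.02) lie below the lowest mean of the 6699 rows (310.5), so rows at their levels were not searched. Within the rows searched, Vegfd had no match at a short distance. Its nearest rows there, Ppil3, Evpl and Naa10, lay at distances of 0.413, 0.415 and 0.450. Pearson's r, which ignores the size of a difference, was 0.999 with Kdelc2 and 0.996 with Galt, whose log2 differences between hypoxia and control were -0.42 and -0.41, against -2.23 for Vegfd. Over 5 libraries, likeness of pattern is a description.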

How the data were processed

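RNA-seq of total RNA from rat vascular smooth muscle cells gave 1 library for each of 5 conditions, prepared, per the labels' protocols, with a SMARTer stranded kit. TopHat, edgeR and the build rn6 are named in the submitters' processing notes; the sources used here give no versions, counting program, annotation or use of strand. The authors deposited 1 log2 value per gene and library; from the values, and not from any stated method, they were taken as log2 of a linear value after adding 1, and that linear value is called an adjusted read count because its low values come in equal steps. Between 89.4% (control) and 100% of values up to 2.5 steps lay within 0.2 of a whole step, and dividing by the step gave approximate reads, with linear values under 0.3 taken as 0 reads. No count model was fitted, since the deposited values are not counts.

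The difference of deposited log2 values was taken between libraries, with an exact 95% Clopper-Pearson counting interval from approximate reads, and with 2-fold as the limit for a count of genes. Shares over all genes were taken over 10770 rows with a mean of at least 10 adjusted reads. Intervals and the floor of 3 reads cover counting error only, as the reads carry no molecular identifiers. The interval was tested only on simulated Poisson counts with known steps, which meet its own assumptions. That test says nothing of spread between cultures or of how well the deposited values meet those assumptions. Named were all members, the list genes at least 2-fold different in hypoxia against control with 20 reads in 1 of the libraries (else the 2 highest and 2 lowest detected), and the 3 rows nearest in pattern to each member. A result that this rule names is not reported here. The members and lists were chosen with earlier results of these data known. Promoter windows are from RefSeq (GRCr8), and no coordinates were converted. Alternatives were other offsets, scalings, filters, limits and intervals. Python 3.11.15, NumPy 2.4.6, pandas 2.3.3, SciPy 1.17.1 and Matplotlib 3.10.9 were used.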

Additional observations from a re-analysis of the deposited data

How the results depend on the processing

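Of 420 log2 differences of the members under other offsets, scalings and row sums, 412 stayed within their counting interval and were counted as unchanged. Of the rest, 5 of Vegfa moved beyond it. The other 3 were of Angpt1 and reversed in sign, though they too lay within their intervals, which have no upper end. The 412 include values whose outcome was fixed in advance. Each member has 1 row, so the row sums could not move a value, and some Angpt1 intervals have no ends to pass. Signs of values near 0 changed under a scaling for Adm (In-Cl against hypoxia), Angpt2 (hypoxia against control), Vegfa (DPN against hypoxia and against E2), Pgf and Vegfc (both In-Cl against E2) and Angpt1 (DPN against E2). The Vegfa values were 1.60 for hypoxia against control after median centring and, after quantile normalization, 0.22 for In-Cl and 0.04 for DPN against hypoxia, 0.18 for In-Cl against DPN and 0.20 for In-Cl against E2. With values under 3 reads raised to 3, Angpt1 became -0.05 for In-Cl against hypoxia, -0.08 against DPN and -0.11 against E2, since all its values then sit at the floor.

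For hypoxia against control, a limit of 1.5-fold gave 2 members higher (Vegfa and Pgf) and 2 lower (Vegfd and Angptl4), quantile normalization gave 2 lower (the same pair), and In-Cl instead of hypoxia against control gave 2 higher (Vegfa and Angpt1). DPN instead of hypoxia gave 1 lower, but that was Angptl4, on 3 reads, and not Vegfd. For In-Cl against hypoxia, the members 2-fold higher fell to 1 (Angptl4) with 5 added to the linear value or with values under 3 reads raised. They fell to 0 with a mean of at least 10, and to 0 with at least 20 reads in 1 library, a limit chosen after seeing the data. For In-Cl against E2, shares of all approximate reads gave 4 members with an interval off 0 (Vegfa, Vegfb, Vegfd and Edn1); the cause was not tested. The share of rows 2-fold different between hypoxia and control was 2.1% in the 6699 detected rows with the highest mean and 12.1% over all detected rows. The same shares against hypoxia were 0.0597% and 8.33% with In-Cl, 0.119% and 9.58% with DPN, and 0.0299% and 9.14% with E2, in place of 1.7%, 1.41% and 1.39% over rows with a mean of at least 10. With a 99% interval, In-Cl against DPN kept 4 members and lost Angptl4. By Pearson's r in place of distance, Cars and Hmox2 remained among the 3 nearest rows of Vegfc, Emp1 of Adm and Mtch2 of Edn1, and none remained for Vegfa, Pgf, Vegfb, Vegfd or Angpt2. Depth limits Angpt1, Angpt2 and Angptl4, at 15 reads or fewer. Leaving out a library was not run, since each condition has 1. No paired analysis was possible because each condition has 1 library and no difference has a test.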

Other observations

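Some genes of the related lists differed between the compound libraries and hypoxia alone; they were picked after their values were seen, and the comparisons share the hypoxia library. Spred1, an inhibitor of growth factor signalling, had log2 differences of 0.63 with In-Cl (counting interval 0.28 to 0.99), 0.75 with DPN (0.40 to 1.11) and 0.94 with E2 (0.60 to 1.30). Hypoxia alone was its lowest library, at 112.7 adjusted reads, with 143.7 in the control. Against the control, its log2 differences were 0.28 with In-Cl (-0.03 to 0.59), 0.40 with DPN (0.09 to 0.71) and 0.59 with E2 (0.29 to 0.89). Gucy1b3, a subunit of the nitric oxide receptor guanylate cyclase, had 0.67 with In-Cl (0.46 to 0.88), 0.48 with DPN (0.26 to 0.70) and 0.19 with E2 (-0.05 to 0.42). In hypoxia against control it stood at -0.71 (-0.92 to -0.50). Cxcl12, a chemokine that recruits vascular progenitors, had 0.48 with In-Cl (0.44 to 0.52), 0.39 with DPN (0.34 to 0.43) and 0.05 with E2 (0.01 to 0.10).

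Nppc, which encodes the vessel-relaxing C-type natriuretic peptide, had about 45 reads with In-Cl, 31 with DPN, 19 with E2, 19 in hypoxia and 18 in the control. Ramp2, the partner that turns Calcrl into an adrenomedullin receptor, had about 38 reads with In-Cl, 18 with DPN, 27 with E2, 41 in hypoxia and 73 in the control. Its log2 difference with DPN was -1.09 against hypoxia (counting interval -2.04 to -0.32) and -1.60 against the control (-2.51 to -0.91). Ramp1 with DPN stood at -1.74 against hypoxia (-3.73 to -0.51), on about 5 reads against 20. None of these differences has a replicate check.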
